A study of Mus musculus with 63 samples.

Results

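The miR-10 and miR-196 miRNAs are transcribed from within the Hox gene clusters, and 6 of their mature forms in the mouse (mmu-miR-10a-5p, mmu-miR-10a-3p, mmu-miR-10b-5p, mmu-miR-10b-3p, mmu-miR-196a-5p and mmu-miR-196b-5p) were followed here through 4 sorted kidney cell types in health, obstruction and repair. They were chosen by name among the 1966 mature miRNA names of the deposited count table, and they occupy 7 of its 2110 loci, because miR-196a-5p is counted at 1 locus on chromosome 11 and 1 on chromosome 15. Over all libraries 671 loci passed the filter on low counts, the 7 among them. Within a cell type, 330 to 477 loci passed it, and all 7 were again among them.

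Small RNA was sequenced from kidneys of male C57BL/6 mice aged 8 to 12 weeks. Mice had a sham operation, 2 days of unilateral ureteric obstruction (UUO-2), 7 days of obstruction (UUO-7), or 7 days of obstruction followed by reimplantation of the ureter and 2 weeks of reversal (R-UUO). From the cortex of each mouse, 4 populations were sorted: endothelial cells (ECs, gated as CD45–CD31+), macrophages (Macs, gated as CD45+F4/80hi), cells of the proximal tubule (PT cells, negative for CD45 and CD31 and bound by the lectin LTL) and stromal cells positive for PDGFR-β and negative for CD45 and CD31. Each group has 4 libraries, except PDGFR-β+ cells at UUO-7, which have 3 because the authors removed 1 as an outlier, and this gives 63 libraries from 16 mice. The mice sequenced were those with kidney injury closest to the mean of their group, so the spread between these mice may understate that between all mice.

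A miRNA is cut from a hairpin precursor whose 2 arms give a 5p and a 3p form, and the arm that is loaded into an Argonaute protein guides it to messenger RNAs that pair with its seed, bases 2 to 8 from the 5′ end. The Hox genes encode transcription factors that set position along the body axis, and the miRNAs among them are expressed in register with their neighbours and are known to repress Hox messenger RNAs. Cells of the adult kidney retain a Hox pattern from the part of the embryo that formed them, and miR-10 is long known as abundant in the kidney and in endothelium.

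The mature sequences are shown because members that share a seed differ at 1 base outside it, so that their counts can be told apart only by that base. Seeds are in capitals, and the sequences are those of RefSeq for GRCm38.p6.
miR-10a-5p: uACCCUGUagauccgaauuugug
miR-10b-5p: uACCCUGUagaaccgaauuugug
miR-10a-3p: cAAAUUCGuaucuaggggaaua
miR-10b-3p: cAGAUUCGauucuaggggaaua
miR-196a-5p: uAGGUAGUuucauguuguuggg
miR-196b-5p: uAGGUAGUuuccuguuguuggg
The pair miR-10a-5p and miR-10b-5p differs by U12A, counted from the 5′ end, with the base of miR-10a-5p first. The pair miR-196a-5p and miR-196b-5p differs by A12C. Of the 1966 names, 1675 had a sequence in the RefSeq table, and among these no other name carried either 5p seed. The 3p arms of miR-10a and miR-10b differ at 3 positions (A3G, U9A and A10U), one of them in the seed.

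The loci lie in all 4 Hox clusters. On GRCm38, miR-10a-5p is at chr11:96317186-96317208 on the plus strand, and its hairpin lies between Hoxb5 and Hoxb4, 993 bases before Hoxb4. For miR-10b-5p the locus is chr2:74726074-74726096 on the plus strand, in an intron of transcripts annotated to Hoxd3 and Hoxd4. One miR-196a-5p locus is at chr11:96265187-96265208 on the plus strand, between Hoxb13 and Hoxb9. The other is at chr15:102973365-102973386 on the plus strand, between Hoxc10 and Hoxc9 in an intron of an annotated Hoxc5 transcript. For miR-196b-5p the locus is chr6:52230129-52230150 on the minus strand, in an exon of an annotated Hoxa9 transcript.

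The 2 miR-196a-5p loci have the same mature sequence, and their hairpins can be told apart only by their 3p arms.
miR-196a-1-3p (chromosome 11): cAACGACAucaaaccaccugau
miR-196a-2-3p (chromosome 15): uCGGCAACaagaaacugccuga
Over the 63 libraries, 196352 counts of miR-196a-5p were placed on chromosome 15 and 2393 on chromosome 11. How reads that fit both loci were placed is not given in the sources used here, so the split of this miRNA between its loci is uncertain. The 3p arms, which do not share a sequence, had 909 counts for miR-196a-1-3p and 1575 for miR-196a-2-3p. Below, miR-196a-5p without a locus means the chromosome 15 locus, and the chromosome 11 locus is named where it is meant.

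Library totals ran from 616565 to 10819385 counts and were smallest in PT cells (616565 to 5093294). The marker miRNAs of each sorted type summed higher in all of its libraries than in any library of the other types, by a margin that was small for the proximal tubular list. The endothelial pair miR-126a-5p and -3p summed to 43892 to 109942 CPM (counts scaled to a common library total) in ECs against at most 4835 in any other library, and the macrophage list (miR-142a, miR-223-3p, miR-511-3p) to 23859 to 64088 in Macs against at most 761. The proximal tubular list (miR-192-5p, miR-194-5p, miR-215-5p) summed to 8325 to 180194 CPM in PT cells against at most 7448, although miR-215-5p was at or near 0 in all cell types, and the stromal list (miR-143-3p, miR-145a-5p, miR-199a-5p, miR-214-3p) to 69582 to 293597 in PDGFR-β+ cells against at most 27871. A pair of libraries stood apart by their miR-10 content. In PT cells, R-UUO replicate 1 gave 71.5% of its counts to miR-10a-5p and miR-10b-5p together and had the lowest proximal tubular sum (8325 CPM, against 43691 to 74173 in the other R-UUO libraries). In ECs, R-UUO replicate 4 gave 61.4% to the pair and had the lowest endothelial sum (43892 CPM). The next highest library gave 51.6%.

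miR-10a-5p was the most abundant of all loci in 39 of the 63 libraries. Together miR-10a-5p and miR-10b-5p took 30.8% of all counts, and between 6.95% and 71.5% of a single library. All 16 EC libraries had miR-10a-5p in first place, as had 12 of 16 PT cell, 6 of 16 Mac and 5 of 15 PDGFR-β+ libraries, and 3 PDGFR-β+ libraries had miR-10b-5p there. The share of a library taken by miR-10a-5p needs no scaling factor, but it falls when any other miRNA of the library rises.

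In sham ECs, miR-10a-5p took 19.3, 20.8, 22.8 and 22.0% of the counts of replicates 1 to 4. In sham Macs the shares were 5.52, 5.67, 6.78 and 6.08%. In sham PT cells they were 9.17, 8.28, 9.41 and 8.56%, and in sham PDGFR-β+ cells 13.9, 13.2, 13.7 and 13.3%. The 4 cell types did not overlap in sham, with ECs highest and Macs lowest. Over all conditions, the share was 23.3% ± 4.07 (SD, n = 16) in ECs, 19.7% ± 8.52 (n = 16) in PT cells, 15.4% ± 3.01 (n = 15) in PDGFR-β+ cells and 9.18% ± 4.16 (n = 16) in Macs. Within mice, the log2 share was higher in ECs than in Macs in 16 of 16 mice, by 1.45 ± 0.13 (SE; exact sign-flip permutation test, two-sided, p = 3.05e-05, the smallest it can give; adjusted p = 9.16e-05 over 6 pairs). It was higher in ECs than in PDGFR-β+ cells in 15 of 15 mice, by 0.61 ± 0.07 (exact permutation test, adjusted p = 0.000122). Averaged over conditions, PT cells and PDGFR-β+ cells did not differ past the threshold (0.23 ± 0.17, exact permutation test, adjusted p = 0.180). ECs and PT cells differed by 0.36 ± 0.16 (exact permutation test, adjusted p = 0.0497), with 11 of 16 mice higher in ECs. These averages mix conditions with unlike orders. PDGFR-β+ cells lay above PT cells in sham and below them at UUO-7 (11.3 to 15.5% against 20.9 to 26.5%), without overlap. ECs lay above PT cells in sham and overlapped with them at UUO-7 (21.9 to 25.9%).

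**Figure D1:**
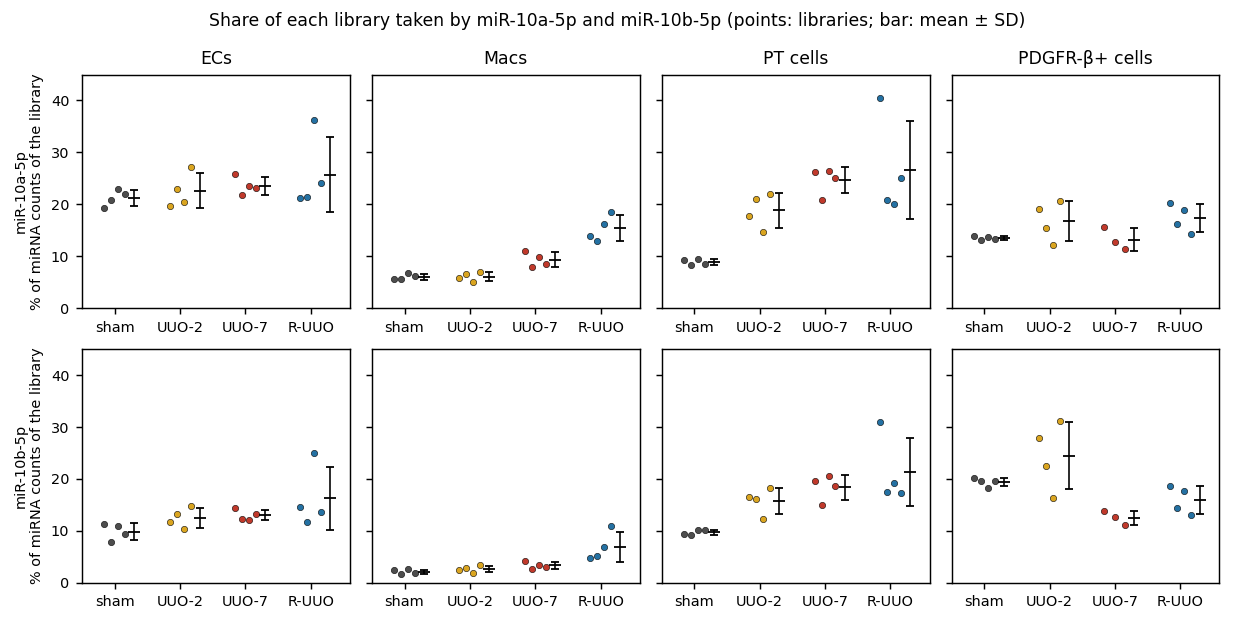
Percent of the miRNA counts of each library (y axis) taken by miR-10a-5p (upper row) and miR-10b-5p (lower row), by condition (x axis) in each sorted cell type. Points are libraries and the bar beside them is the mean ± SD of 3 or 4 libraries. In PT cells the sham libraries sit at 8.28 to 9.41% for miR-10a-5p, below all 12 other libraries, and R-UUO replicate 1 stands at 40.5%.

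For levels across cell types, libraries were scaled together by trimmed mean of M values (TMM), each type was set against the average of the remaining 3 by edgeR's quasi-likelihood test, and a call needed a Benjamini-Hochberg adjusted p below 0.05 over the 671 loci tested and a fold change above 1.5. Macs were lower at all 7 loci, and ECs were higher for the 4 miR-10 arms and lower at both miR-196a-5p loci. PT cells and PDGFR-β+ cells were higher for miR-196 and for both miR-10b arms. The call for miR-10b-3p in PT cells was lost in 4 of the 16 fits that left out a mouse. In all, 23 of the 28 member comparisons were called, where the same contrasts called 52.5% of all loci for ECs, 57.2% for Macs, 59.8% for PT cells and 51.0% for PDGFR-β+ cells. Between pairs of cell types, 34 of 42 were called, where 64.7% of all loci were for ECs and Macs, 68.6% for ECs and PT cells, 40.2% for ECs and PDGFR-β+ cells, 62.3% for Macs and PT cells, 68.7% for Macs and PDGFR-β+ cells and 63.2% for PT and PDGFR-β+ cells. A call by itself is therefore common here, and the order of the levels is given for each member.

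The level of miR-10a-5p in ECs ran from 255609 to 770497 CPM with a median of 340989. PT cells had 57136 to 782785 with a median of 176526, PDGFR-β+ cells 103794 to 330518 with a median of 194416, and Macs 25706 to 118568 with a median of 43807. ECs were higher than the mean of the other types by a log2 of 1.59 ± 0.11 (adjusted p = 5.7e-20), and Macs were lower (log2 difference -2.14 ± 0.13, adjusted p = 6.1e-22). For PT cells (0.15) and PDGFR-β+ cells (0.41) no call was made, and the contrast between the neighbouring PT and PDGFR-β+ cells was not called either.

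miR-10b-5p had another order. PDGFR-β+ cells had 101963 to 500396 CPM with a median of 234769, ECs 108619 to 531354 with a median of 187564, PT cells 60774 to 599239 with a median of 139438, and Macs 10167 to 68068 with a median of 17049. PDGFR-β+ cells (log2 difference 1.43 ± 0.12) and ECs (1.17 ± 0.12) were both called higher than the mean of the other types, and the contrast between them was not called. PT cells were called higher as well, by 0.59 ± 0.12 (adjusted p = 1.6e-05), which is just past the fold change required. With the mouse as a block the difference of 0.57 fell short of it, and the call was lost in 10 of the 16 fits that left out a mouse (0.37 to 0.68). Macs were lower (log2 difference -3.19 ± 0.15, adjusted p = 1.1e-26).

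The 3p arms, which are usually degraded, followed their 5p arms at far lower levels. Median levels of miR-10a-3p by group ran with those of miR-10a-5p (Pearson r = 0.96 over the 16 group means of log2 CPM), and miR-10b-3p with miR-10b-5p (r = 0.97). Both arms come from 1 hairpin and were read in the same libraries, so these are descriptions and not tests. Within a library, the log2 ratio of 5p to 3p averaged 10.6 to 11.1 by cell type for miR-10a and 12.7 to 12.9 for miR-10b. For miR-10b it did not differ between any pair of cell types (smallest of 6 adjusted p = 0.840, exact sign-flip permutation test). For miR-10a it was higher in ECs than in PT cells by a log2 of 0.43 ± 0.12 and than in Macs by 0.27 ± 0.09 (adjusted p = 0.0220 and 0.0310, exact permutation test), and in no other pair past the threshold. In Macs, miR-10b-3p rested on 1 to 65 counts a library.

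miR-196a-5p was a miRNA of the tubular and stromal cells. PDGFR-β+ cells had 1841 to 3507 CPM with a median of 2252 and PT cells 937 to 2117 with a median of 1549, while ECs had 114 to 397 with a median of 176 and Macs 38.5 to 396 with a median of 98.1. Every PT and PDGFR-β+ library was above every EC and Mac library. PDGFR-β+ cells (log2 difference 2.89 ± 0.08, adjusted p = 1.4e-36) and PT cells (2.04 ± 0.09, adjusted p = 5.3e-29) were higher than the mean of the other types, and ECs (-2.01 ± 0.10) and Macs (-2.92 ± 0.11) were lower. ECs were called higher than Macs by 0.68 ± 0.11, but this order turned to -0.65 when libraries were scaled by their totals alone. The TMM factors were 0.47 to 0.77 in ECs and 1.37 to 2.01 in Macs, and a factor below 1 raises the CPM. PDGFR-β+ cells were higher than PT cells by 0.64, a call that was lost with library totals alone (log2 difference of PT from PDGFR-β+ cells -0.07) and with DESeq2 (-0.54).

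The chromosome 11 locus of miR-196a-5p had the same outline at far fewer counts, with a median of 24.2 CPM in PT cells, 24.3 in PDGFR-β+ cells, 3.05 in ECs and 1.38 in Macs, the last on 2 to 25 counts a library. The contrast of PT with PDGFR-β+ cells was not called at this locus. The 3p arms, which tell the hairpins apart, had opposite orders. miR-196a-1-3p, from chromosome 11, was higher in PT cells than in PDGFR-β+ cells by a log2 of 2.41 ± 0.34 (adjusted p = 9.0e-09), on 3 to 85 counts a PT library and 0 to 22 a PDGFR-β+ library. miR-196a-2-3p, from chromosome 15, was lower in PT cells than in PDGFR-β+ cells (log2 difference -1.91 ± 0.24, adjusted p = 4.7e-10), on 2 to 23 and 41 to 149 counts. In that contrast 63.2% of all loci were called.

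miR-196b-5p was spread more widely. PT cells had 880 to 1777 CPM with a median of 1371, PDGFR-β+ cells 788 to 2184 with a median of 1188, ECs 326 to 1376 with a median of 558 and Macs 33.5 to 218 with a median of 63.8. PT cells and PDGFR-β+ cells were higher than the mean of the other types, both by a log2 of 1.78 ± 0.08, and their own contrast was not called. Macs were lower (log2 difference -3.66 ± 0.11, adjusted p = 1.4e-35), and ECs were not called (0.10).

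**Figure D2:**
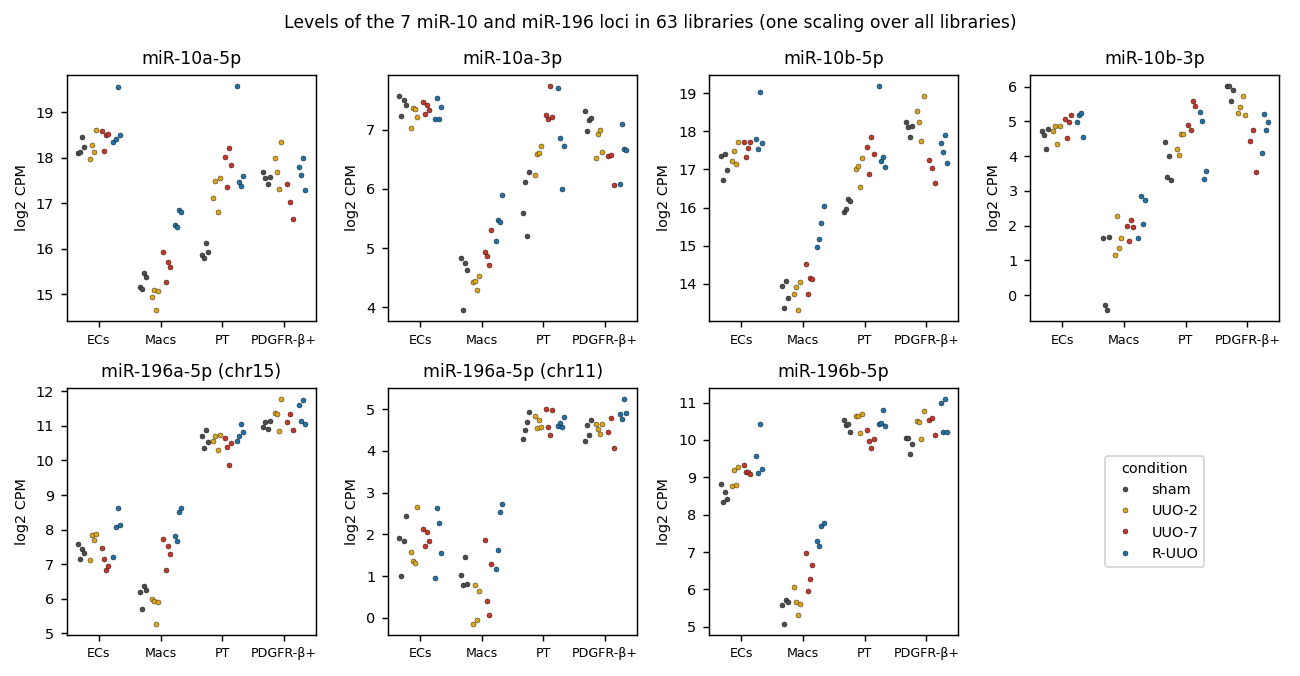
Level of each of the 7 loci as log2 CPM (y axis, scaled by TMM over all 63 libraries), by sorted cell type (x axis) and condition (colour, from sham on the left to R-UUO on the right of each cell type). Each point is a library. miR-10a-5p is highest in ECs and lowest in Macs, and both miR-196a-5p loci and miR-196b-5p are highest in PT and PDGFR-β+ cells.

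Because members of a pair share their seed, their ratio within a library gives the make-up of the pair free of any scaling. miR-10a-5p exceeded miR-10b-5p in all 16 EC and all 16 Mac libraries. The mean log2 ratio was 1.35 ± 0.26 (SD, n = 16) in Macs, 0.88 ± 0.22 (n = 16) in ECs, 0.21 ± 0.24 (n = 16) in PT cells and -0.23 ± 0.33 (n = 15) in PDGFR-β+ cells, where miR-10b-5p was on average the larger. All 6 pairs of cell types differed within mice (exact sign-flip permutation test, adjusted p = 7.32e-05 to 0.000122). For miR-196a-5p (loci summed) to miR-196b-5p the mean log2 ratio was lowest in ECs at -1.53 ± 0.47, followed by PT cells at 0.24 ± 0.19, Macs at 0.60 ± 0.34 and PDGFR-β+ cells at 0.89 ± 0.21. ECs were below each other cell type in every mouse, by a log2 of 1.77 to 2.39 (exact permutation test, adjusted p = 9.16e-05 in each pair). On average ECs thus had more miR-196b-5p and the other 3 types more miR-196a-5p. PT cells were close to equal counts, and libraries of PT cells and Macs reached down to -0.06.

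Changes with injury and reversal were tested within each cell type, with the filter and TMM scaling run on the libraries of that type. From here on CPM are on that scale, and adjusted p values are from edgeR's quasi-likelihood test unless another is named. In bulk libraries of sorted cells, more miRNA per cell and a changed mix of cells in the sort cannot be told apart. Comparisons with sham share the sham libraries, as those with UUO-7 share the UUO-7 libraries. The plot of fold changes from sham gives all of them, and the 4 cell types are described in turn.

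**Figure D3:**
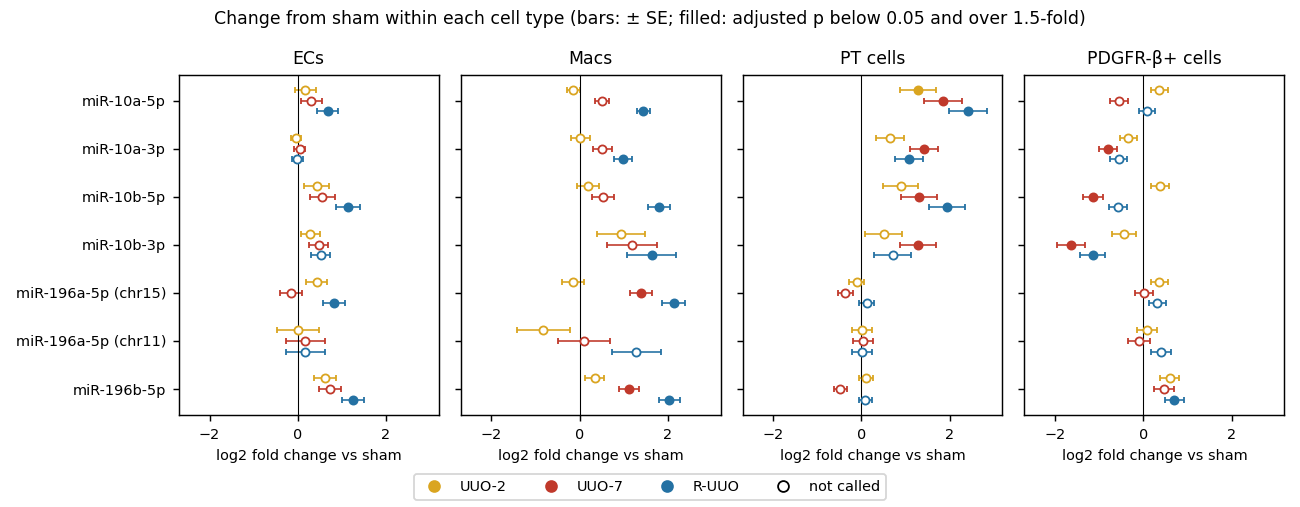
Log2 fold change from sham (x axis) of each of the 7 loci (y axis) at UUO-2, UUO-7 and R-UUO in each cell type. Points are fitted changes and bars are ± SE, and filled points passed an adjusted p of 0.05 and a 1.5-fold change. miR-10 arms rise in PT cells, miR-10 and miR-196 rise in Macs at R-UUO, and miR-10b arms fall in PDGFR-β+ cells at UUO-7.

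In PT cells the miR-10 arms rose with obstruction, and with all libraries no miR-196 locus was called in any of the 5 contrasts. The share of miR-10a-5p was 17.7, 21.1, 14.7 and 22.1% at UUO-2 and 26.1, 20.9, 26.5 and 25.1% at UUO-7, against 8.28 to 9.41% in sham. It was 40.5, 20.8, 20.1 and 25.0% at R-UUO. No library of any obstructed group overlapped with sham, and after 2 weeks of reversal every library was still above sham. The mean share rose from 8.85% ± 0.53 in sham to 24.6% ± 2.57 at UUO-7 (SD, n = 4 each; exact permutation test, two-sided, p = 0.0286, the smallest that 4 against 4 can give, and adjusted p = 0.0714 over 20 comparisons).

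The fitted log2 change of miR-10a-5p in PT cells was 1.28 ± 0.42 at UUO-2 (adjusted p = 0.0371), 1.85 ± 0.43 at UUO-7 (adjusted p = 0.00242) and 2.41 ± 0.43 at R-UUO (adjusted p = 0.000481). At UUO-2 it was the 1 member of 7 called, where 19.1% of all loci were (14.8% higher), and the call was lost when any of 7 of the 8 libraries was left out (adjusted p up to 0.118), with the change staying between 1.16 and 1.38. At UUO-7, 4 of 7 loci were called, all miR-10 arms and all higher, where 43.0% of all loci were called and 25.5% higher. No member was called between UUO-2 and UUO-7 (4.24% of all loci) or between UUO-7 and R-UUO (1.52%). The direction of this last contrast rested on R-UUO replicate 1, which stood apart: miR-10a-5p was at 0.56 and miR-10b-5p at 0.63 with it, and at -0.33 and -0.20 without it, none of them called. At R-UUO the change from sham without replicate 1 was 1.53 ± 0.20 (adjusted p = 2.6e-05).

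miR-10b-5p moved in the same direction from a similar share. It took 9.30, 9.20, 10.1 and 10.2% of sham PT libraries and 19.5, 15.1, 20.6 and 18.6% at UUO-7, with no overlap. The log2 change was 1.30 ± 0.40 at UUO-7 (adjusted p = 0.0157), and 1.12 with an adjusted p of 0.0518 without UUO-7 replicate 4. At R-UUO the shares were 31.0, 17.6, 19.3 and 17.4%, and the change was 1.94 ± 0.41 (adjusted p = 0.00176), or 1.12 ± 0.21 (adjusted p = 0.000541) without replicate 1. In that contrast 38.8% of all loci were called (25.8% higher) and 3 of the 7 members, all higher.

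The 3p arms of the same hairpins rose as well. miR-10a-3p had 57.2, 79.2, 42.4 and 92.9 CPM in sham PT cells and 163, 162, 239 and 160 at UUO-7, which did not overlap. Its log2 change was 1.42 ± 0.32 (adjusted p = 0.00202), and 1.08 ± 0.32 at R-UUO (adjusted p = 0.0133), where it was 0.71 with an adjusted p of 0.0588 without replicate 1. miR-10b-3p had 24.8, 11.5, 18.1 and 11.2 CPM in sham and 31.4, 29.5, 52.6 and 46.4 at UUO-7, a change of 1.28 ± 0.42 (adjusted p = 0.0193) on 9 to 23 counts in the sham libraries. This last call was lost in 3 of the 8 fits that left out a library, and with library totals in place of TMM the change was 0.90 and was not called.

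miR-196 in the same PT libraries had other values. miR-196a-5p had 2016, 1518, 2223 and 1775 CPM in sham and 1710, 1520, 1049 and 1577 at UUO-7, overlapping groups with a log2 difference of -0.36 ± 0.17 (adjusted p = 0.0861). miR-196b-5p had 1777, 1562, 1624 and 1425 in sham and 1327, 1143, 985 and 1124 at UUO-7. These groups did not overlap, but the difference of -0.48 ± 0.15 (adjusted p = 0.0153) was under the fold change required for a call, which it passed without UUO-7 replicate 2 (-0.60, adjusted p = 0.00788). From UUO-2 to UUO-7 its difference was -0.58 (adjusted p = 0.0278), again under that fold change, and it was called without UUO-2 replicate 3 (-0.70) or UUO-7 replicate 2 (-0.67). From UUO-7 to R-UUO it was 0.57 (adjusted p = 0.0572), and it was called without R-UUO replicate 1 (0.60, adjusted p = 0.0305) or R-UUO replicate 5 (0.63, adjusted p = 0.0278).

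Other miRNAs moved with the miR-10 rise in these PT libraries, and their part in it was not tested. The proximal tubular marker sum was 152880 to 180194 CPM in sham and 28234 to 66182 at UUO-7, with 3 of 3 tested loci of the list lower. The stromal sum was 2081 to 5177 in sham and 6826 to 15778 at UUO-7, with miR-143-3p and miR-145a-5p called higher of the 3 tested. Of the list for kidney epithelium in general, miR-141-3p and miR-200c-3p were called higher of 5, though its sum moved little, from 7259 to 8925 CPM in sham to 8793 to 10794 at UUO-7. The macrophage sum stayed at or below 294 CPM in both groups. The share of miR-10a-5p in PT cells at UUO-7 (20.9 to 26.5%) lay above its share in all 15 PDGFR-β+ libraries (11.3 to 20.5%). It lay within the range of the 16 EC libraries (19.3 to 36.3%), and what these orders owe to the mix of cells was not tested.

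In Macs the rise came later and took in both families. miR-10a-5p took 5.52 to 6.78% of sham libraries, then 5.70, 6.63, 4.98 and 6.98% at UUO-2, then 11.0, 7.86, 9.82 and 8.44% at UUO-7, and 13.9, 12.8, 16.2 and 18.4% at R-UUO. UUO-7 lay above sham and UUO-2, and R-UUO above UUO-7, with no overlap, while UUO-2 and sham overlapped. The log2 change from UUO-2 to UUO-7 was 0.65 ± 0.15 (adjusted p = 0.00325), that from UUO-7 to R-UUO 0.94 ± 0.16 (adjusted p = 0.000442) and that from sham to R-UUO 1.45 ± 0.16 (adjusted p = 1.6e-06). The change from sham to UUO-7 was 0.51 on the TMM scale and not called, and 0.63 and called with library totals alone. From UUO-2 to UUO-7 the call was lost in 2 of the 8 fits that left out a library.

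miR-10b-5p took 2.37, 1.69, 2.59 and 1.82% of sham Mac libraries, 4.21, 2.73, 3.36 and 3.05% at UUO-7 and 4.72, 5.24, 6.81 and 11.0% at R-UUO. R-UUO was again above every other Mac library. The change from sham to R-UUO was 1.80 ± 0.25 (adjusted p = 2.4e-05) and that from UUO-7 to R-UUO 1.27 ± 0.25 (adjusted p = 0.00139).

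Of the members in Macs, miR-196a-5p had the largest fitted changes from sham at UUO-7 and R-UUO. It had 113, 81.5, 133 and 111 CPM in sham, 107, 109, 66.6 and 112 at UUO-2, 370, 201, 341 and 241 at UUO-7 and 373, 326, 556 and 674 at R-UUO. Sham and UUO-2 overlapped and every later library was above them. The log2 change was 1.39 ± 0.26 from sham to UUO-7 (adjusted p = 0.000213) and 2.13 ± 0.26 from sham to R-UUO (adjusted p = 5.4e-06). From UUO-7 to R-UUO it was 0.74 ± 0.25 (adjusted p = 0.0393), a call that was lost in 4 of the 8 fits that left out a library (adjusted p up to 0.118).

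miR-196b-5p went the same way in Macs, from 73.4, 52.5, 84.4 and 73.9 CPM in sham to 219, 107, 143 and 152 at UUO-7 and 258, 227, 317 and 372 at R-UUO, with no overlap between these groups. The changes from sham were 1.12 ± 0.23 at UUO-7 (adjusted p = 0.000506) and 2.04 ± 0.23 at R-UUO (adjusted p = 2.5e-06). None was called at UUO-2 against sham, where 27.6% of all loci were. In all, 2 of 7 loci were called at UUO-7 against sham, both higher, where 43.1% of all loci were called (26.3% higher), and 6 of 7 at R-UUO against sham, all higher, where 31.9% were called (21.4% higher). From UUO-2 to UUO-7, 3 of 7 were called higher (30.6% of all loci called, 16.2% higher), and from UUO-7 to R-UUO 4 of 7 were (19.9% called, 12.7% higher). The 6th locus at R-UUO, miR-10b-3p, rested on 1 to 24 counts a library in sham and lost its call in 5 of the 8 fits without a library.

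Markers of other cells moved in these Mac libraries too, and their part in the rise of the members was not tested. miR-150-5p, listed as a lymphocyte marker, had 147 to 249 CPM in sham, 837 to 1346 at UUO-7 and 205 to 995 at R-UUO. Its log2 changes from sham were 2.36 ± 0.35 (adjusted p = 2.8e-05) and 1.57 ± 0.34 (adjusted p = 0.00129). It was higher still in sham ECs, at 2023 to 2491 CPM, so it is not shown here to mark lymphocytes alone. The stromal sum was 3052 to 7374 CPM in sham, 5345 to 7852 at UUO-7 and 8074 to 13034 at R-UUO. Of its list, miR-199a-5p and miR-214-3p were called higher at UUO-7, and all 4 tested loci rose from sham to R-UUO, with miR-199a-5p going from a mean of 20.0 to 201 CPM and miR-214-3p from 3.83 to 50.2. The endothelial pair did not pass the test (511 to 4835 CPM in sham, 1190 to 3927 at R-UUO). The macrophage sum was 52630 to 64088 in sham, 32075 to 37041 at UUO-7 and 23859 to 38956 at R-UUO. Of its 4 tested loci, both miR-142a arms were called lower and miR-511-3p higher at UUO-7, and miR-142a-5p and miR-223-3p lower at R-UUO. The proximal tubular sum was 5398 to 7448 in sham, 2278 to 3835 at UUO-7 and 1558 to 3699 at R-UUO.

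In PDGFR-β+ cells the miR-10b arms were lower at UUO-7 than in sham and at UUO-2. miR-10b-5p took 20.2, 19.6, 18.2 and 19.6% of sham libraries, 27.9, 22.6, 16.4 and 31.1% at UUO-2, 13.8, 12.7 and 11.1% at UUO-7 and 18.6, 14.4, 17.7 and 13.0% at R-UUO. UUO-7 was below every sham and UUO-2 library. The TMM factors were 0.79 to 1.03 in sham and 1.23 to 1.36 at UUO-7, which makes the fitted fall from sham larger than that of the share. The log2 change from sham to UUO-7 was -1.15 ± 0.23 (adjusted p = 0.00069) and that from UUO-2 to UUO-7 was -1.53 ± 0.23 (adjusted p = 0.000122). In the first of these contrasts the median change of all loci was 0.50, and in the second 0.38, so relative to the median locus the falls were larger.

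miR-10b-3p fell beside it, from 46.9, 56.2, 36.0 and 46.9 CPM in sham to 15.2, 20.1 and 8.88 at UUO-7 and 13.5, 26.6, 18.4 and 25.3 at R-UUO. Both later groups were below sham without overlap. The changes were -1.65 ± 0.32 at UUO-7 (adjusted p = 0.00057) and -1.15 ± 0.28 at R-UUO (adjusted p = 0.00362). miR-10a-3p had 116, 109, 108 and 117 CPM in sham and 67.9, 72.3 and 53.3 at UUO-7, a change of -0.80 ± 0.21 (adjusted p = 0.0047) that was -0.30 and not called with library totals alone.

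The share of miR-10a-5p in the same cells was 15.5, 12.7 and 11.3% at UUO-7 against 13.2 to 13.9% in sham, and the groups overlapped. On the TMM scale the difference was -0.55 and not called, and it was called with other size factors (-0.79 with DESeq2). From UUO-2 to UUO-7 it fell by 0.91 ± 0.21 on the log2 scale (adjusted p = 0.00297). At UUO-7 against sham 3 of 7 loci were called, all lower, where 48.2% of all loci were called and 14.3% lower. At UUO-7 against UUO-2, 3 of 7 were called, all lower (33.8% of all loci called, 10.3% lower). None was called at UUO-2 against sham (6.29% of all loci) or at R-UUO against UUO-7 (3.98%).

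Markers moved in these libraries as well, and their part in the results was not tested. The stromal sum was 243509 to 272171 CPM in sham and 114802 to 148548 at UUO-7, with miR-143-3p and miR-145a-5p called lower and miR-199a-5p (both loci) and miR-214-3p called higher. The macrophage sum was 39.3 to 136 in sham and 244 to 761 at UUO-7, and the endothelial sum 1406 to 1757 in sham and 674 to 1406 at UUO-7.

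No miR-196 locus was called lower in PDGFR-β+ cells. miR-196a-5p had 1476, 1942, 1442 and 1813 CPM in sham PDGFR-β+ cells and 1593, 1976 and 1518 at UUO-7, overlapping groups with a difference of 0.02 ± 0.21. miR-196b-5p had 778, 924, 595 and 760 CPM in sham and 1638, 854, 1525 and 965 at R-UUO, a change of 0.70 ± 0.22 (adjusted p = 0.0151). These groups overlapped, and the call was lost in 3 of the 8 fits that left out a library. At R-UUO against sham 1 member was called higher and 1 lower, where 41.7% of all loci were called. Of those not called, miR-10a-3p (-0.56) passed the fold change in 5 of the 8 fits that left out a library and miR-10b-5p (-0.57) in 3.

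In ECs the members were called in 1 contrast, R-UUO against sham, with 4 of 7 higher, where 16.8% of all loci were called and 11.7% higher. In the other contrasts few loci of any kind were called (1.71% at UUO-2 and 11.5% at UUO-7 against sham, 1.92% between UUO-2 and UUO-7 and 1.07% between UUO-7 and R-UUO). From UUO-7 to R-UUO, miR-196a-5p was at 0.98 (adjusted p = 0.0553), and it was called without R-UUO replicate 1 (1.17, adjusted p = 0.0138). miR-196b-5p had 273, 211, 243 and 215 CPM in sham and 544, 331, 963 and 403 at R-UUO, with no overlap, a change of 1.25 ± 0.25 (adjusted p = 0.00228). miR-10b-5p took 11.4, 7.94, 10.9 and 9.31% in sham and 14.6, 11.7, 25.1 and 13.7% at R-UUO, also without overlap, a change of 1.14 ± 0.28 (adjusted p = 0.0078). miR-10a-5p (0.68 ± 0.23, adjusted p = 0.0442) and miR-196a-5p (0.82 ± 0.25, adjusted p = 0.0221) overlapped between the groups.

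Without R-UUO replicate 4, the EC library that stood apart, 2 of these calls remained, miR-196b-5p at 0.93 ± 0.18 (adjusted p = 0.00194) and miR-10b-5p at 0.71 ± 0.18 (adjusted p = 0.00875), and miR-10a-5p was at 0.34 (adjusted p = 0.0938). Without sham replicate 2 the same 2 were called. The stromal sum in ECs was 7803 to 16360 CPM in sham and 3546 to 27871 at R-UUO, the lowest of these in replicate 4, and its part was not tested.

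Whether a change in a cell type differed from that elsewhere was tested as its change minus the average change in the remaining 3, in a fit over all 63 libraries. These differences are not independent, because a large change in any type enters the average that each other type is set against. Of 84 member tests 13 were called, and none of them in ECs (0.149% of all loci at UUO-2 and 11.8% at UUO-7), although miR-196a-5p at UUO-7 in ECs (-0.62) was called in 3 of the 16 fits that left out a mouse. For UUO-7 against sham in PT cells, the rise of the miR-10 arms exceeded that elsewhere by a log2 of 1.92 ± 0.33 for miR-10a-5p (adjusted p = 5.0e-06), 1.66 for miR-10a-3p, 1.49 for miR-10b-5p and 1.45 for miR-10b-3p (a call lost in 2 of the 16 fits that left out a mouse, adjusted p up to 0.0815), while miR-196b-5p went the other way (-1.08 ± 0.25, adjusted p = 0.000681). In that contrast 23.8% of all loci were called, against 5 of 7 members.

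In PDGFR-β+ cells the change of the miR-10 arms at UUO-7 was below that elsewhere. The differences were -1.33 for miR-10a-5p, -1.37 for miR-10a-3p, -1.84 for miR-10b-5p and -2.51 for miR-10b-3p, so 4 of 7 members were called, where 22.8% of all loci were. The change of miR-10a-5p within PDGFR-β+ cells was -0.55 and not called, and its rise in PT cells enters the average it was set against. In Macs the change of miR-196a-5p at UUO-7 exceeded that elsewhere by 1.39 ± 0.27 (adjusted p = 4.9e-05) and that of miR-196b-5p by 0.73 ± 0.26 (adjusted p = 0.0321), with 20.1% of all loci called. The second of these calls was lost in 2 of the 16 fits (adjusted p up to 0.115). For UUO-2 against sham, the PT cell change of miR-10a-5p (1.33 ± 0.32, adjusted p = 0.00278) and miR-10a-3p (0.95 ± 0.27, adjusted p = 0.0121) was larger than elsewhere, with 11.6% of all loci called. For miR-10a-3p this was lost in 5 of the 16 fits (adjusted p up to 0.246). None was called at UUO-2 in Macs (8.79%) or PDGFR-β+ cells (6.41%). With the mouse as a block 2 more differences were called, miR-10a-5p in Macs at UUO-2 (-0.87) and miR-196a-5p in PT cells at UUO-7 (-0.59).

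For reversal (R-UUO against UUO-7) no difference between cell types was called for a member, where 0.149% of all loci were in ECs and also in PDGFR-β+ cells, 0.894% in Macs and 0.596% in PT cells. One mouse set this count. The 4 libraries of R-UUO mouse 1 include the PT library that stood apart. Without them, all 4 miR-10 arms in PT cells were called for reversal, lower than elsewhere (-1.11 for miR-10a-5p and -1.15 for miR-10b-5p). In Macs miR-10a-5p (0.85) and miR-10b-5p (1.17) were called higher than elsewhere, and no other member was called for reversal. Over UUO-2, UUO-7 and reversal together, 21 of the 84 member differences were called without this mouse, beside 13 with all mice. The share of all loci called without it is not given here.

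The ratio of paralogs within a library also had conditions that did not overlap, though none of these differences passed the adjusted threshold. In PDGFR-β+ cells the log2 ratio of miR-10a-5p to miR-10b-5p was -0.54, -0.57, -0.41 and -0.56 in sham and -0.55, -0.56, -0.43 and -0.60 at UUO-2. It was 0.17, 0.01 and 0.03 at UUO-7 and 0.11, 0.17, 0.10 and 0.13 at R-UUO. The later groups were above the earlier ones without overlap and the order of the pair turned, from more miR-10b-5p to slightly more miR-10a-5p. The difference between R-UUO and sham was 0.65 ± 0.04 (SE; exact permutation test, two-sided, p = 0.0286, adjusted p = 0.114 over the 20 comparisons of this ratio), and with 3 against 4 libraries the smallest p is 0.0571. None of the 20 passed the adjusted threshold, which a lone difference cannot pass when the smallest p is 0.0286.

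In PT cells the ratio was -0.02, -0.15, -0.10 and -0.25 in sham and 0.42, 0.47, 0.36 and 0.43 at UUO-7, again without overlap. In ECs the log2 ratio of miR-196a-5p to miR-196b-5p was -1.22, -1.19, -1.14 and -1.06 in sham and -1.83, -1.98, -2.26 and -2.12 at UUO-7, a difference of -0.90 ± 0.10 (exact permutation test, p = 0.0286, adjusted p = 0.114). In Macs it was 0.65, 0.67, 0.69 and 0.61 in sham and -0.06, 0.30, -0.02 and 0.34 at UUO-2, again with no overlap. At UUO-7 it was 0.68 to 1.25, with a median of 0.84 against 0.66 in sham.

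**Figure D4:**
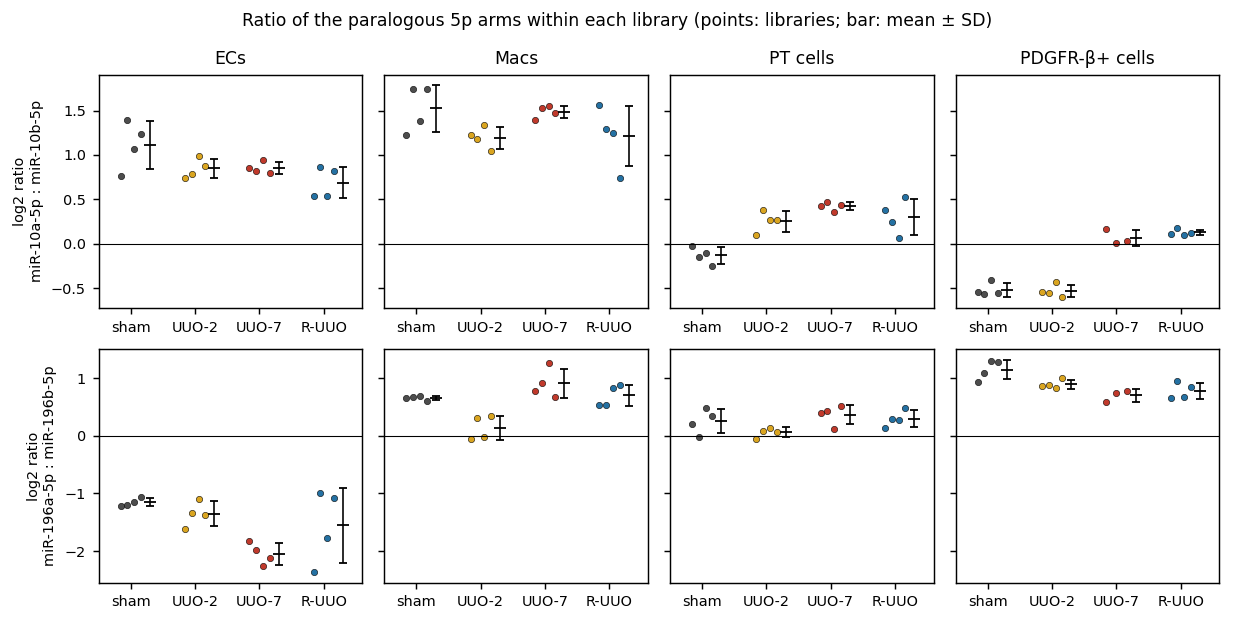
Log2 ratio within each library (y axis) of miR-10a-5p to miR-10b-5p (upper row) and of miR-196a-5p, loci summed, to miR-196b-5p (lower row), by condition (x axis) and cell type. Points are libraries, the bar is the mean ± SD, and the line at 0 marks equal counts. In PDGFR-β+ cells the miR-10 ratio passes from -0.41 and below in sham and UUO-2 to above 0 at UUO-7 and R-UUO.

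The other miRNAs of the Hox clusters are the 3p arms of the miR-196 hairpins and miR-615, whose hairpin lies in the HoxC cluster in an intron of Hoxc5. Of these 5 names, all 5 were called higher in PT cells (32.9% of all loci called higher) and 4 of 5 in PDGFR-β+ cells (29.1%), and all 5 lower in Macs (26.8% lower), with median log2 differences of 1.87, 2.53 and -2.52 beside -0.03, -0.18 and -0.24 for all loci. ECs had 3 of 5 called lower (52.5% of all loci called either way). Within Macs 2 of the 5 passed the filter, and both were called higher at UUO-7 than in sham (43.1% of all loci called, 26.3% higher). Of these, miR-615-3p had 3.29 to 8.90 CPM in sham Macs and 16.0 to 25.1 at UUO-7 on the scale over all libraries. Its change within Macs was 1.76 ± 0.27 (adjusted p = 3.8e-05). In PT cells 2 of 5 were called lower at UUO-7 than in sham (43.0% of all loci called either way), among them miR-615-3p (-0.72 ± 0.22, adjusted p = 0.0149). In PDGFR-β+ cells 1 of 5 was called higher (34.0% of all loci higher).

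Among the 671 loci, the ones whose group means ran most like miR-196a-5p were miR-615-3p (Pearson r = 0.98 over 16 groups), miR-3102-3p (r = 0.95) and miR-615-5p (r = 0.94). For miR-10a-5p they were miR-672-5p (r = 0.94), miR-23b-3p (r = 0.93) and miR-204-5p (r = 0.93), for miR-10b-5p let-7e-3p (r = 0.94), miR-130a-3p (r = 0.92) and miR-744-3p (r = 0.91), and for miR-196b-5p miR-92b-3p (r = 0.94), miR-130a-3p (r = 0.92) and miR-744-3p (r = 0.91). Among the members themselves, miR-10a-5p and miR-196a-5p were the least alike (r = 0.34). The points share libraries and scaling, and these values only order the loci by likeness.

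The miR-99 and miR-100 miRNAs, relatives of miR-10 that carry another seed and lie outside the Hox clusters, gave a comparison from related sequences. In Macs at UUO-7, 4 of their 5 tested loci were called lower than sham, among them miR-99b-5p (log2 change -1.06 ± 0.14, adjusted p = 1.2e-05), where 16.8% of all loci were. Of the 6 tested in PDGFR-β+ cells, 3 were called higher at UUO-7 (34.0% of all loci), among them miR-100-5p (1.60 ± 0.24, adjusted p = 4.9e-05). In both of these contrasts no miR-99 or miR-100 locus was called in the direction of the called members. In Macs those members were miR-196a-5p and miR-196b-5p, and no miR-10 locus was called. In PDGFR-β+ cells they were miR-10a-3p and both miR-10b arms. In PT cells at UUO-7, 2 of 5 were called higher and none lower (25.5% of all loci higher), among them miR-100-5p (2.22 ± 0.56, adjusted p = 0.00492). At R-UUO against sham, 2 of 5 were called higher in PT cells (25.8% of all loci higher) and 3 of 5 in ECs (11.7%), with none lower. In these contrasts 3 of 7 and 4 of 7 members were called higher. In Macs at R-UUO against sham 1 of 5 was called higher, miR-100-5p (2.09 ± 0.49, adjusted p = 0.00229), and 2 lower (31.9% of all loci called either way), with a median of -0.35, and from UUO-7 to R-UUO 3 of 5 were higher (12.7% of all loci).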

How the data were processed

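The authors trimmed the reads with Trim Galore 0.4.1 and cutadapt 1.1, aligned them to GRCm38 with a Bowtie wrapper and deposited raw read counts per miRNA locus. Strand and the placement of reads that fit several loci are not given in the sources used here. The deposited counts were used unchanged from 63 libraries of 4 sorted cell types and 4 conditions, with totals of 616565 to 10819385 counts. Replicates are separate mice, and low counts, given beside the values, limit the precision.

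Loci were filtered with filterByExpr, scaled by TMM and tested with edgeR 4.0.16 (quasi-likelihood, R 4.3.3), with Benjamini-Hochberg adjustment over all loci tested. A call needed an adjusted p below 0.05 and a fold change above 1.5. Cell types and differences of changes were fitted over all libraries, and conditions within a cell type. Shares and ratios (pseudocount 0.5) were tested with exact two-sided permutation tests over libraries, or sign flips over mice (SciPy 1.17.1). Cell types of 1 mouse carry its number and were paired by it. Deviations correlated with a median of 0.05 for the same mouse and -0.02 for other mice. Scripts were tested on simulated data. There the difference of changes between cell types missed most changes at loci under the count filter in the cell type that changed, so counts over all loci for such differences are low. All 7 member loci passed that filter in every cell type.

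The loci reported are all those of the 6 names. The members, the marker lists and the lists of related miRNAs were chosen with earlier results of these data known. For likeness, the 3 loci with the highest correlation over 16 group means were named. Alternatives were DESeq2 1.42.0, other size factors, no filter, summed loci, scaling without miR-10a-5p, other fits, replicate blocks and leaving out each library.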

Additional observations from a re-analysis of the deposited data

Results flagged for a closer look

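Among 180 groups of 4 libraries examined, 7 had a library whose gap to the nearest other, divided by the range of the group, was above Dixon's 95% critical value. Chance alone gives about 1 in 20 such groups. In PT cells at R-UUO, replicate 1 stood out for miR-10a-5p (log2 CPM 19.86 against 17.62 to 17.76 in the others, ratio 0.936) and for miR-10b-5p (19.47 against 17.23 to 17.57, ratio 0.851). Its TMM factor of 0.43, against 1.00 to 1.13 in the others, widens both gaps. By share of the library, its miR-10a-5p was at 40.5% against 20.1 to 25.0%. In PT cells at UUO-7, replicate 4 stood out for miR-10a-3p (7.91 against 7.33 to 7.36, ratio 0.955). In PT cells at UUO-2, replicate 3 stood out for miR-196b-5p (10.39 against 10.84 to 10.86, ratio 0.945) and for the log2 ratio of miR-10a-5p to miR-10a-3p (10.19 against 10.84 to 10.91, ratio 0.9). In Macs at UUO-2, replicate 3 stood out for miR-196a-5p (6.07 against 6.74 to 6.82, ratio 0.901). In sham PDGFR-β+ cells, replicate 3 stood out for the log2 ratio of miR-10a-5p to miR-10b-5p (-0.41 against -0.57 to -0.54, ratio 0.836).

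A further 13 changes from sham differed between cell types by the interaction test. At UUO-2 in PT cells these were miR-10a-5p (1.33) and miR-10a-3p (0.95), as the log2 change minus the average change in the other 3 types. At UUO-7 in PT cells they were miR-10a-5p (1.92), miR-10a-3p (1.66), miR-10b-5p (1.49), miR-10b-3p (1.45) and miR-196b-5p (-1.08). At UUO-7 in Macs they were miR-196a-5p (1.39) and miR-196b-5p (0.73). At UUO-7 in PDGFR-β+ cells they were miR-10a-5p (-1.33), miR-10a-3p (-1.37), miR-10b-5p (-1.84) and miR-10b-3p (-2.51).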

How the results depend on the processing

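Among the member differences called in the main fit or in an alternative, scaling by library totals alone turned 5. These log2 differences were miR-196b-5p in ECs against the average of the other types (-0.71), miR-196a-5p in ECs against Macs on chromosome 15 (-0.65) and chromosome 11 (-0.33), miR-10a-3p in ECs against PT cells (-0.088) and miR-10a-3p in PDGFR-β+ cells from UUO-2 to UUO-7 (0.075). The cause was not tested. Of these, the contrasts of ECs with Macs and with PT cells had been called, and no other called difference was turned by any alternative or by leaving out a library or mouse. Among differences that had not been called, leaving out 1 library turned 25 of 105 changes with condition, and leaving out 1 mouse turned 22 of 71 differences between cell types and 5 of 13 contrasts of levels. For the same differences, each counted once per alternative, the other alternatives turned 57 of 921 values for changes with condition. They turned 36 of 485 for differences between cell types and 14 of 90 for contrasts of levels. In ECs the 4 member calls became 8 with no filter on low counts.

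Leaving out each library in turn gave 2 to 5 calls in ECs, with 2 without R-UUO replicate 4 or sham replicate 2. In Macs it gave 13 to 15 (15 with all libraries). For PT cells the range was 6 to 10 (8), and for PDGFR-β+ cells 8 to 10 (8). Leaving out each mouse in turn gave 11 to 21 differences between cell types (13), with 21 without R-UUO mouse 1, and 21 to 23 calls of cell types against the average of the others (23).

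With the mouse as a replicate block, 75 results kept their side of the threshold, 2 passed it and 1 lost it. Between conditions the same number is another mouse (median correlation of deviations -0.02), so the samples share only a number. With that number as a block, ECs had 2 calls, miR-10a-5p (0.62, adjusted p = 0.0807) and miR-196a-5p (0.79, adjusted p = 0.0613) being lost. In Macs miR-196a-5p from UUO-7 to R-UUO (0.67, adjusted p = 0.104) and miR-10b-3p from sham to R-UUO (1.42, adjusted p = 0.0938) were lost, and in PDGFR-β+ cells miR-10b-5p from sham to R-UUO (-0.64) was gained. Depth limits miR-10b-3p and miR-196a-5p on chromosome 11 in Macs, with 1 to 65 and 2 to 25 counts a library.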
